A study of Mus musculus with 103 samples.

Results

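The comparison set the change in messenger RNA that followed deletion of Smc3 beside the change that followed deletion of Wapl in quiescent mouse embryonic fibroblasts. It used 16 of the 103 samples of the series, 16 of the 27 libraries in its main RPKM table, and every one of the 16 was chosen by its labelled genotype and treatment. All cells came from C57BL/6 embryos at E13.5 and carried Rosa26(CreER/+), a Cre recombinase fused to an oestrogen receptor and expressed from the Rosa26 locus, which is active in most cell types. Smc3 cells were 4 clones, clone 1 Smc3(fl/fl) and clones 2 to 4 Smc3(fl/-). Wapl cells were 2 clones, both Wapl(fl/-), so the untreated cells of 3 of the 4 Smc3 clones and of both Wapl clones already lacked 1 allele. Cre-ER cells, the control for the drug, were clones 2 and 3 with no floxed gene. Each clone gave an untreated library, from cells rested for 10 d, and a treated library, from cells given 4'-hydroxytamoxifen for 2 to 3 d and then rested for 10 d. The clone is the replicate: n = 4 for Smc3, 2 for Wapl and 2 for Cre-ER. The question, as the design poses it, was which genes move alike and which move apart when the ring itself or its release factor is lost.

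Cohesin is a ring of Smc1, Smc3 and a kleisin (Scc1, encoded by Rad21) that is loaded onto DNA by Nipbl and Mau2, extrudes and holds chromatin loops, and is stopped at many sites by CTCF. Wapl, with the Pds5 proteins, opens the ring and releases it from chromatin. Loss of Smc3 therefore removes cohesin from DNA, while loss of Wapl leaves more of it there for longer. The Stag1 and Stag2 subunits are alternative partners of the ring.

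Depth was between 8467390 and 26404201 reads in genes per library, recovered from the steps between RPKM values, so an RPKM of 1 stood for 23.9 to 73.1 reads in a gene of median length. Within a group, pairs of libraries had correlations of 0.948 to 0.991 across genes on the log2(RPKM + 1) scale, and no pair held identical values. Libraries differed in RNA of macrophage markers, whose summed level ran from 30.7 to 5442 RPKM and is given clone by clone with the correlations of clones. Of 23339 entries in the table, 12604 reached an RPKM of 1 in at least 2 of the 27 libraries and were tested with limma, with p-values adjusted by Benjamini-Hochberg over all 12604 and a threshold of 0.05. A change is the treated minus the untreated mean of log2(RPKM + 1), which understates the fold of genes near 0. The p-values rest on the spread within groups, pooled over all 27 libraries, including those of other genotypes, and moderated across genes by limma. Libraries of a clone were not paired in this fit, except where the clone is given as a block.

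The targeted genes came first. Smc3 mRNA was 7.62, 9.9, 10.5 and 10.2 RPKM in untreated Smc3 clones 1 to 4 and 11.3, 11.1, 10.9 and 13.2 RPKM in the same clones after treatment. Its level was thus higher, not lower, in 4 of 4 libraries labelled Smc3-deleted, by 0.27 ± 0.11 on the log2 scale (SE, adjusted p = 0.119, and 0.0421 with the clone as a block, over a range of 0.0354 to 0.811 across the alternatives tried). The RPKM of a whole gene does not show whether the floxed exons are gone, so every direction given for Smc3 cells rests on the label. Wapal, the symbol of the Wapl gene in this table, was at 1.8 and 1.48 RPKM in untreated Wapl clones 1 and 2 and at 0.78 and 0.914 RPKM after treatment. The groups did not overlap, but the change of -0.51 ± 0.18 had an adjusted p of 0.167, and of 0.0233 with the clone as a block (range 0.0191 to 0.788).

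Among the other ring components and regulators, Stag1 changed differently with the deletions. It was at 6.34, 4.25, 5.31 and 4.27 RPKM in untreated Smc3 clones 1 to 4 and at 10.6, 9.04, 11.2 and 10.6 RPKM in the libraries labelled Smc3-deleted, while Wapl clones 1 and 2 went from 5.61 and 4.14 to 4.66 and 3.09 RPKM. Every treated Smc3 library lay above every untreated one, and both Wapl clones moved the other way with libraries that overlapped. The Smc3 change was 0.92 ± 0.13 (adjusted p = 0.00012), the Wapl change -0.28 ± 0.18 (adjusted p = 0.551) and their difference 1.20 ± 0.23 (adjusted p = 0.00856). Stag2 also rose in Smc3 cells, by 0.44 (adjusted p = 0.0311), and Pds5b fell by 0.48 (adjusted p = 0.0354). Of the 15 cohesin genes tested, 2 rose and 1 fell after treatment of Smc3 cells (5 and 1 with the clone as a block), none passed after Wapl deletion (limma, 1 at an unadjusted p under 0.05, and 1 lower with the block), and Rad21, the kleisin gene, changed by 0.06 and -0.09. Over all 12604 genes tested, 9.37% rose and 5.6% fell in Smc3 cells. With the block, 3025 of all genes rose and 1591 fell in Smc3 cells, and 960 rose and 879 fell in Wapl cells. Stag1 kept its Smc3 call without each library in turn, but its difference was lost without treated Wapl clone 2 (adjusted p = 0.0834) or untreated Wapl clone 1 (adjusted p = 0.0995, the highest over the alternatives, the lowest being 0.0027). Stag2 lost its call without treated Smc3 clone 1, 3 or 4 or untreated Smc3 clone 2 or 4, and Pds5b without treated Smc3 clone 2, 3 or 4 or untreated Smc3 clone 1 or 3.

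After treatment, 1181 genes rose in Smc3 cells (9.37% of those tested) and 706 fell (5.6%). In Wapl cells 189 rose (1.5%) and 117 fell (0.928%). The Smc3 test had 4 clones and the Wapl test 2, so these counts cannot be compared in size. With only Smc3 clones 2 and 3 the Smc3 calls went from 1887 to 627, and with only clones 3 and 4 to 1105. Genes that rose in both numbered 88 (0.698%), genes that fell in both 33 (0.262%), and 15 (0.119%) passed the threshold in both with opposite signs. The 88 were 46.6% of the Wapl-higher and 7.45% of the Smc3-higher genes, and the 33 were 28.2% of the Wapl-lower and 4.67% of the Smc3-lower genes. The Smc3 change had the same sign in 152 of the 189 genes that rose in Wapl cells and in 78 of the 117 that fell. Like signs over all genes tested were not counted. The mean changes of the genotypes correlated at 0.52 (Pearson) across all of them, so these 2 counts are descriptions without a background. The difference between the changes, tested in the same model, passed for 78 genes with the higher change in Smc3 cells (0.619%) and 70 with the higher change in Wapl cells (0.555%), and in 120 of these 148 (0.952% of all tested) the changes had opposite signs. In bulk RNA, fewer cells of a type and less RNA per cell cannot be told apart.

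The counts moved with the settings and with single libraries. Without treated Smc3 clone 4 the genes that rose in Smc3 cells numbered 750. With the libraries rescaled by the median of their ratios, 882 genes rose and 795 fell in Smc3 cells (52.6% higher among the calls, against 62.6%). With the clone as a block the shared genes numbered 919 and the opposite ones 145, from 4616 Smc3, 1839 Wapl and 1111 difference calls. Without the treated library of Wapl clone 1 the Wapl calls fell to 28 and the shared ones to 5. Without the untreated library of Wapl clone 1 they were 57 and 15, and without that of Wapl clone 2 they were 80 and 25. The difference calls were then 52, 73 and 65, against 93 without the treated library of Wapl clone 2. The opposite calls were 2, 4 and 6 without the first 3 of these libraries, 8 without treated Smc3 clone 4 and 9 without untreated Smc3 clone 2. A lone Wapl library was then assumed to vary like the other groups. After the same rescaling the shared genes split into 70 higher and 44 lower, and the differences into 68 with the higher change in Smc3 cells and 74 with the higher change in Wapl cells.

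**Figure D1:**
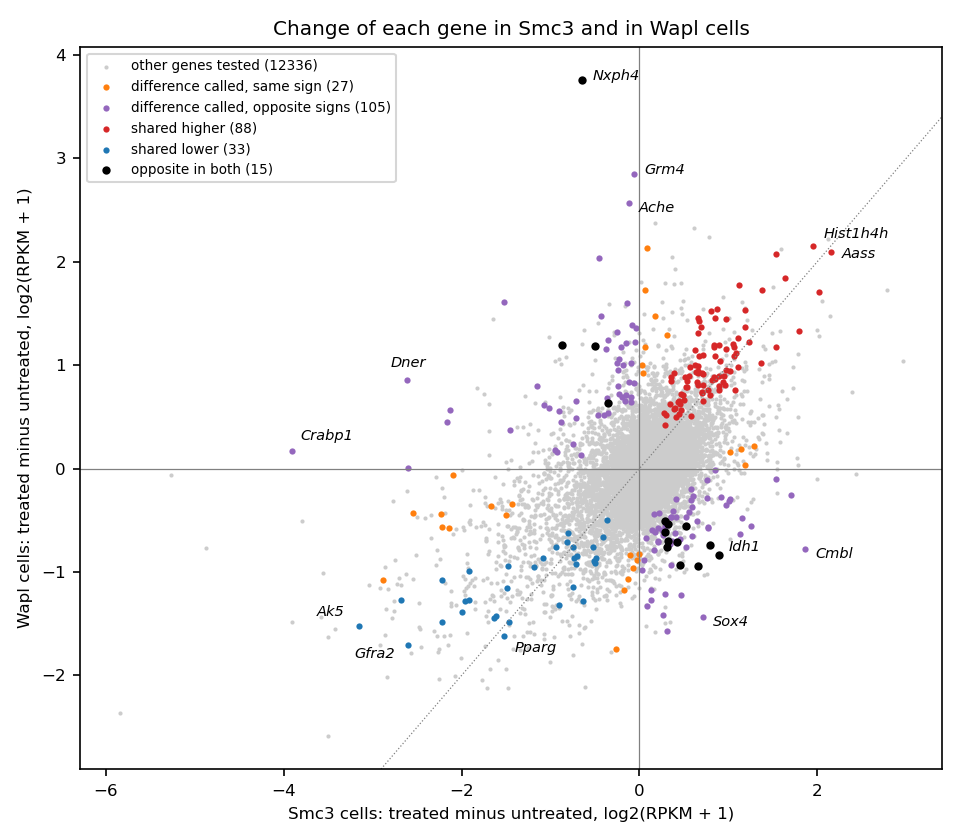
Each point is a gene; the x axis is its log2(RPKM + 1) change in Smc3 cells (4 clones) and the y axis its change in Wapl cells (2 clones), with the dotted line at equal change. The 88 genes in red rose in both, the 33 in blue fell in both, the 15 in black passed in both with opposite signs, and purple and orange mark the remaining genes whose difference passed, with opposite and with like signs. Ak5, drawn in blue, is the shared gene whose difference also passed.

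Among genes that rose in both, Aass, which encodes the mitochondrial enzyme that starts lysine breakdown, had the largest change common to both, taking the smaller of its 2 changes. It was at 1.67, 0.881, 1.49 and 1.09 RPKM in untreated Smc3 clones 1 to 4 and at 9.85, 6.28, 11.3 and 9.62 after treatment. In Wapl clones 1 and 2 it went from 1.22 and 1.28 to 11.3 and 6.5 RPKM. Treated and untreated libraries did not overlap in either genotype, while Cre-ER clones 2 and 3 went from 1.34 and 1.37 to 0.962 and 1.57 RPKM. The changes were 2.16 ± 0.17 (adjusted p = 2.6e-07) and 2.09 ± 0.24 (adjusted p = 0.000101), and they differed by 0.07 ± 0.30 (adjusted p = 0.981).

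Hist1h4h, a gene for histone H4, rose from between 4.75 and 7.68 RPKM to between 15.6 and 37 RPKM over the 4 Smc3 clones and from 3.7 and 3.67 to 17.8 and 21.9 RPKM in Wapl clones 1 and 2. Its changes were 1.95 ± 0.22 and 2.15 ± 0.31 (adjusted p = 1.55e-05 and 0.000903), with 4.74 and 2.11 RPKM untreated and 1.46 and 1.57 treated in the Cre-ER clones. Trp53i11, a p53-induced gene, went from between 6.67 and 10.6 RPKM to between 27.5 and 43.3 RPKM in Smc3 cells and from 4.15 and 4.53 to 18 and 14.9 in Wapl cells, changes of 2.02 ± 0.17 and 1.70 ± 0.24 (adjusted p = 6.19e-07 and 0.000717). These 3 genes kept both calls when each of the 16 libraries was left out in turn, and the other 9 named genes of this direction did not.

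Among those 9, the cadherins Cdh26, Cdh13 and Cdh3 rose by 1.54, 1.12 and 1.11 in Smc3 cells and by 2.07, 1.77 and 1.26 in Wapl cells. Cdh3, or P-cadherin, was at 50.2, 61.9, 48 and 50.5 RPKM in untreated and 97.7, 125, 98.2 and 143 RPKM in treated Smc3 clones, against 32.9 and 53.7 RPKM untreated and 104 and 101 RPKM treated in Wapl clones. Tenm3, a teneurin of neural wiring, rose from between 29 and 40.8 RPKM to between 54.3 and 98.6 RPKM in Smc3 and from 29.5 and 36.2 to 92.8 and 79.4 RPKM in Wapl cells. No untreated library of Cdh3 or Tenm3 reached a treated one of its genotype.

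Ntf3, which encodes the growth factor neurotrophin-3, was at 2.55 to 3.77 RPKM in untreated Smc3 and 0.899 to 1.02 RPKM in untreated Wapl cells and rose by 1.64 in Smc3 and 1.84 in Wapl cells. The proprotein convertase Pcsk5 rose by 1.79 and 1.33, the RhoGAP gene Stard13 by 1.18 and 1.53, and Fam180a by 1.38 and 1.72. Over all 88 genes the median change was 0.72 in Smc3 and 0.92 in Wapl cells, and 20 of the 88 had the larger change in Smc3 cells. The 88 were selected by passing both tests, and the Wapl test, with fewer clones, needed a larger change. The sizes of the changes in the genotypes can therefore not be compared in this set. In Cre-ER cells the same 88 genes had a median change of -0.01, with 41 above 0.

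Among genes that fell in both, Ak5, an adenylate kinase, had the largest fall in Smc3 cells. It went from 17.1, 16.8, 24.7 and 20 RPKM in untreated Smc3 clones 1 to 4 to 1.86, 1.27, 0.801 and 1.34, and from 15.2 and 21 to 3.97 and 7.68 in Wapl clones 1 and 2. The fall was deeper in Smc3 cells, -3.16 ± 0.17 against -1.53 ± 0.24, a difference of -1.63 ± 0.29 (adjusted p = 0.00509). Cre-ER clones held 22.7 and 25.5 RPKM untreated and 23.7 and 25.1 treated. Its call in Wapl cells ended without the treated library of Wapl clone 1.

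Pparg, the nuclear receptor that drives fat cell differentiation, was at 4.07, 1.77, 3.84 and 1.55 RPKM in untreated and 0.594, 0.202, 0.226 and 0.0939 RPKM in treated Smc3 clones. In Wapl clones it was at 12.3 and 6.33 RPKM and then 1.71 and 2.84 RPKM. It began higher in Wapl cells, by 1.44 ± 0.35 (adjusted p = 0.0361), and changed by -1.52 ± 0.28 in Smc3 and -1.62 ± 0.40 in Wapl cells (adjusted p = 0.00133 and 0.0389), a difference of 0.10 ± 0.49 (adjusted p = 0.984). The groups of each genotype did not overlap, and the Cre-ER clones held 3.85 and 5.05 RPKM untreated and 4.04 and 3.89 treated.

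Gfra2, the receptor for neurturin, fell from between 5.32 and 12.4 RPKM to between 0.215 and 2.09 RPKM in Smc3 cells (-2.60 ± 0.30, adjusted p = 1.79e-05) and from 9.13 and 13.2 to 2.62 and 2.71 RPKM in Wapl cells (-1.71 ± 0.42, adjusted p = 0.0379). Fmod, or fibromodulin, a collagen-binding proteoglycan, fell from between 198 and 327 RPKM to between 36.9 and 74.6 RPKM and from 179.8 and 186 to 51.2 and 81.5 RPKM, changes of -2.22 and -1.49. Slc7a5, the light chain of a transporter of large neutral amino acids, fell from between 48.3 and 67.9 RPKM to between 11.1 and 20.7 RPKM and from 71 and 62.1 to 23.4 and 30.9 RPKM, changes of -1.92 and -1.27. Its heavy-chain partner Slc3a2 changed by -0.53 in Smc3 and -0.76 in Wapl cells (adjusted p = 0.000938 and 0.00455).

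The snoRNA host Snhg12 changed by -1.47 in Smc3 and -1.48 in Wapl cells, the lipase gene Mgll by -1.62 and -1.43, and Angptl1, which encodes an angiopoietin-like protein, by -1.64 and -1.44. Dact1, a regulator of Dishevelled in Wnt signalling, changed by -2.0 and -1.39, the neural adhesion genes Cntnap3 and Ctnna2 by -2.68 and -1.49 in Smc3 and by -1.27 and -1.16 in Wapl cells, and Ier5l by -2.22 and -1.08. None of the 12 named genes that fell in both kept both calls through all 16 fits that left a library out, and without the treated library of Wapl clone 1 all 12 lost the Wapl call. Over the 33 genes the median changes were -1.09 in Smc3 and -0.99 in Wapl cells, and 0.03 in Cre-ER cells. These genes too were selected by passing both tests, so the Smc3 and Wapl medians cannot be compared in size.

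**Figure D2:**
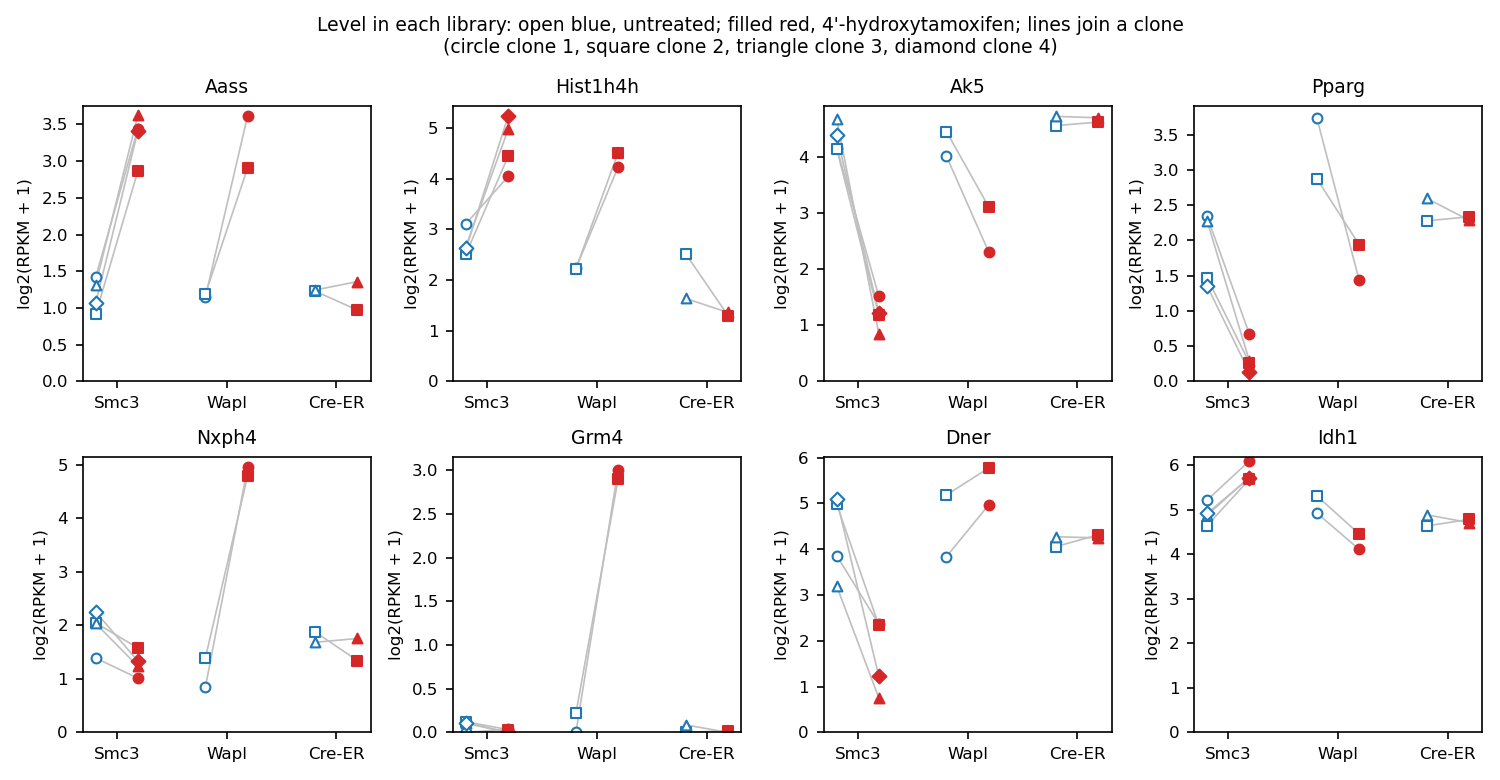
Each panel gives the log2(RPKM + 1) of a gene in the 16 libraries: open blue symbols are untreated, filled red symbols treated, and a line joins the libraries of a clone. The upper genes moved alike in Smc3 and Wapl cells, the lower ones apart: Nxph4 was at 30.0 and 26.8 RPKM in treated Wapl cells and at 1.02 to 1.99 RPKM in treated Smc3 cells.

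The promoter of a gene from each set is shown as an example. Each is the RefSeq window of GRCm38.p6, 250 bases before to 50 after the annotated start, on the gene's strand. Capitals mark matches, on either strand, to the TATA box searched as TATAAA, the core of the Sp1 site (GGGCGG), the core of many CTCF sites (CCCTC) or the E-box of bHLH factors (CACGTG). Aass (chr6:23132937-23133236, minus strand) rose in both, Pparg (chr6:115360894-115361193, plus strand, the first of 3 windows listed) fell in both, Cmbl (chr15:31568583-31568882, plus strand) was higher with Smc3 loss than with Wapl loss, and Dner (chr1:84696172-84696471, minus strand) the reverse.
Aass: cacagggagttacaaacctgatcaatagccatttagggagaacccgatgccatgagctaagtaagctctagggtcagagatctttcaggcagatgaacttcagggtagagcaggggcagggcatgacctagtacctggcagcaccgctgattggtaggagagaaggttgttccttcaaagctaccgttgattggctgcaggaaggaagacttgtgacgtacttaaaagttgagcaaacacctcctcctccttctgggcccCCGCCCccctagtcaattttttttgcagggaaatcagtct
Pparg: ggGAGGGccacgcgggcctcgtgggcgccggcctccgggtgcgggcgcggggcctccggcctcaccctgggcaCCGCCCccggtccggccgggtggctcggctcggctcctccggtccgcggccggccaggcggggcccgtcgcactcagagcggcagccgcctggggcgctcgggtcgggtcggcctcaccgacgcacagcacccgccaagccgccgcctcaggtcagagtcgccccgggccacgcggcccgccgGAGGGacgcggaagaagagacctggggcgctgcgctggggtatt
Cmbl: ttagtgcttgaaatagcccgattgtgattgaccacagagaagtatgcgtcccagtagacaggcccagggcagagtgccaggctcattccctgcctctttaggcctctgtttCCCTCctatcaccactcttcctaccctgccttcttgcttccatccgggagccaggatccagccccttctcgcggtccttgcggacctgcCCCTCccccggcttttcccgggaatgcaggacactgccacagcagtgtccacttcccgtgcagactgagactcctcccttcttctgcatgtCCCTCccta
Dner: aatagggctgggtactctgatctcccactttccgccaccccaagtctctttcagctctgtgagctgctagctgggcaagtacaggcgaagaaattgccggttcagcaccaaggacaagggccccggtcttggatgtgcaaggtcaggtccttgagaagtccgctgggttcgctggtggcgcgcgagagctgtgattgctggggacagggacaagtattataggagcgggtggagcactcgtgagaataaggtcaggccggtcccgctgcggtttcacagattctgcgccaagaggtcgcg
The Aass window held 1 match to GGGCGG, that of Pparg 1 to GGGCGG and 2 to CCCTC, that of Cmbl 3 CCCTC matches and that of Dner none of the 4 motifs. Shares in each set stand beside those of all 9881 tested genes with a window. GGGCGG was in 65.8% of 73 windows of genes that rose in both, in 69.6% of 23 that fell in both, in 29 of 58 with the higher change in Smc3 cells and in 68.0% of 50 with the higher change in Wapl cells, against 65.9% of all. CCCTC was in 75.3, 91.3, 75.9 and 84.0% of the same sets, against 76.5% of all. TATAAA was in 5.48, 8.7, 12.1 and 4.0%, against 7.34%, and CACGTG in 8.22, 4.35, 8.62 and 8.0%, against 10.2%. These are matches of letters, given as a description.

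Of the 15 genes that passed in both comparisons with opposite signs, 11 were higher after Smc3 and lower after Wapl deletion, and 4 were the reverse. Nxph4, a secreted ligand of neurexins, stood at the far end of the 4. It was at 0.798 and 1.63 RPKM in untreated and 30 and 26.8 RPKM in treated Wapl clones 1 and 2. In Smc3 clones 1 to 4 it was at 1.62, 3.14, 3.11 and 3.77 RPKM untreated and 1.02, 1.99, 1.36 and 1.52 RPKM treated, and in Cre-ER clones at 2.67 and 2.22 RPKM untreated and 1.54 and 2.38 RPKM treated. The Wapl change was 3.76 ± 0.27 (adjusted p = 9.87e-08), the Smc3 change -0.64 ± 0.19 (adjusted p = 0.0302) and the difference -4.40 ± 0.33 (adjusted p = 3.5e-07). The Smc3 libraries of Nxph4 overlapped, and that call was lost in 6 of the 16 fits that left a library out, while the difference was called in all of them.

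The other 3 of this direction were Kif26a, a kinesin-family gene, Reep6, a gene for a membrane-shaping protein, and Camk2n2, which encodes an inhibitor of CaM kinase II. Kif26a went from 1.54, 1.96, 0.843 and 1.19 to 0.609, 0.347, 0.0764 and 0.175 RPKM in Smc3 clones 1 to 4 and from 1.15 and 0.797 to 4.24 and 2.86 RPKM in Wapl clones, changes of -0.87 ± 0.16 and 1.20 ± 0.22. Reep6 changed by -0.50 ± 0.13 and 1.19 ± 0.18, and Camk2n2 by -0.36 ± 0.10 and 0.63 ± 0.14. In Cre-ER cells Reep6 changed by 0.41, in the direction of its Wapl change, and Camk2n2 by -0.12. Over all 15 oppositely called genes the Cre-ER change had a median of -0.04 and ran from -0.23 to 0.41. It was above 0 in 5, and 1 had an unadjusted p under 0.05 (limma).

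Idh1, which makes alpha-ketoglutarate and NADPH in the cytosol, had the largest difference among the 11 that rose with Smc3 and fell with Wapl loss. It was at 36.1, 24, 28.4 and 29.2 RPKM in untreated and 67.3, 50.3, 52 and 51.4 RPKM in treated Smc3 clones, and at 29.4 and 38.6 RPKM untreated and 16.3 and 20.9 RPKM treated in Wapl clones. Neither genotype's libraries overlapped. The changes were 0.89 ± 0.13 (adjusted p = 0.000171) and -0.83 ± 0.18 (adjusted p = 0.0197), the difference 1.72 ± 0.23 (adjusted p = 0.000443), and the Cre-ER clones held 23.8 and 28.5 RPKM untreated and 26.5 and 25.2 RPKM treated.

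Man2b2, a mannosidase gene, went from between 129.7 and 148 RPKM to between 218 and 258 RPKM in Smc3 and from 161 and 141 to 81.5 and 98.4 RPKM in Wapl cells, changes of 0.79 ± 0.12 and -0.74 ± 0.16. Dtd1, a deacylase of mischarged tRNA, changed by 0.66 ± 0.12 and -0.94 ± 0.17, and Ppa2, the mitochondrial inorganic pyrophosphatase, by 0.46 ± 0.11 and -0.94 ± 0.16. The DNA repair genes Ercc4 and Rad51l3 (Rad51d) changed by 0.29 and 0.32 in Smc3 cells and by -0.62 and -0.70 in Wapl cells. Smaller pairs of changes were those of Lphn2, an adhesion receptor (0.42 and -0.71), Loh12cr1 (0.52 and -0.55), Fam149b (0.31 and -0.76), Tradd, an adaptor of the TNF receptor (0.32 and -0.54), and Dcps, a decapping enzyme (0.29 and -0.51). In each of the 15 the difference itself passed, with adjusted p between 3.5e-07 and 0.0143. This largely followed from the choice of genes, because opposite changes that both passed add up in the difference. None of the 15 kept both single calls through all fits that left a library out.

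The 70 genes with the higher change in Wapl cells held 34 that rose in Wapl cells with no call in Smc3 cells and 30 that fell in Smc3 cells with no call in Wapl cells. Among the first kind, Grm4 and Ache were near 0 everywhere but in treated Wapl cells. Grm4, a metabotropic glutamate receptor, was at 7.03 and 6.45 RPKM in treated Wapl clones 1 and 2, at 0 and 0.163 RPKM before treatment, and at no more than 0.0873 RPKM in any Smc3 or Cre-ER library. Ache, which encodes acetylcholinesterase, went from 0.172 and 0.333 to 7.24 and 5.61 RPKM in Wapl clones and stayed between 0.0426 and 0.403 RPKM in the 12 other libraries. Their Wapl changes were 2.84 ± 0.11 and 2.56 ± 0.16 (adjusted p = 1.55e-11 and 3.12e-08) and their differences -2.91 ± 0.14 and -2.68 ± 0.20 (adjusted p = 3.78e-10 and 3.5e-07). Rasgrp2, an exchange factor for Rap1, went from 0.516 and 0.333 to 6.44 and 4.25 RPKM in Wapl clones and was at 0.252 to 1.09 RPKM in untreated and 0.128 to 1.71 RPKM in treated Smc3 clones. Ccl11, the eotaxin gene, rose in Wapl cells from 3.25 and 1.86 to 25.6 and 11.3 RPKM (2.38 ± 0.56, adjusted p = 0.0301), but its difference did not pass (-2.20 ± 0.69, adjusted p = 0.172), and the Wapl call was lost without treated or untreated Wapl clone 1 or untreated Wapl clone 2.

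Of genes that fell in Smc3 cells with no call in Wapl cells, Crabp1 had the largest difference. Crabp1, which binds retinoic acid in the cytosol, was at 134, 109, 66.2 and 106 RPKM in untreated and 10.9, 9.39, 4.13 and 2.33 RPKM in treated Smc3 clones, and at 46 and 62.5 RPKM untreated and 67.8 and 54.1 RPKM treated in Wapl clones. Its Smc3 change was -3.90 ± 0.37 and its difference -4.08 ± 0.65 (adjusted p = 0.0025). Dner, a transmembrane protein with Notch-like repeats, went from 13.5, 30.7, 8.19 and 33.1 to 4.15, 4.06, 0.684 and 1.33 RPKM in Smc3 clones and from 13.3 and 35.3 to 30.2 and 53.7 RPKM in Wapl clones. Every treated Smc3 library of both genes lay below every untreated one, and the Wapl libraries of both overlapped. The Dner difference of -3.47 ± 0.79 had an adjusted p of 0.0361 and was lost in 11 of the 16 fits that left a library out.

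The chemokine Cxcl5 changed by -1.52 ± 0.41 in Smc3 and 1.61 ± 0.58 in Wapl cells (difference adjusted p = 0.0361), from 4.69 and 5.05 to 15.7 and 18.1 RPKM in Wapl clones. Ndnf, a secreted neurotrophic factor, went from 5.6, 5.99, 6.33 and 6.03 to 1.61, 0.739, 0.312 and 0.0991 RPKM in Smc3 clones 1 to 4 and from 3.03 and 2.49 to 5.09 and 4.09 RPKM in Wapl clones, a difference of -2.70 ± 0.38 (adjusted p = 0.000967). Both genes fell in Smc3 cells, and their Wapl change did not pass. Their Wapl libraries did not overlap, but the rule that named both genes required each Wapl clone to rise. The secreted chaperone gene Clu went from 42.9, 56.8, 28.6 and 58.3 to 23.4, 21.6, 18 and 16.5 RPKM in Smc3 and from 35.8 and 43.7 to 57.7 and 84 RPKM in Wapl clones (difference -1.95 ± 0.31, adjusted p = 0.0025). Lbp, which binds lipopolysaccharide, changed by -2.17 ± 0.32 and 0.45 ± 0.46, and Ptx3, a soluble pattern recognition protein, by -2.60 ± 0.29 and 0.00 ± 0.41. Tmem132c changed by -2.09 and -0.06 and Apba2, an adaptor of amyloid precursor protein, by -2.88 and -1.07. Of the 16 genes named for a higher change in Wapl cells, 8 kept the call of the difference in all 16 fits that left a library out.

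The 78 genes with the higher change in Smc3 cells held 35 that rose in Smc3 cells with no Wapl call and 30 that fell in Wapl cells with no Smc3 call. Cmbl, a hydrolase gene, went from 2.17, 2.06, 0.691 and 1.01 to 4.39, 7.65, 9.21 and 10.9 RPKM in Smc3 clones 1 to 4 and from 1.86 and 1.23 to 0.536 and 0.403 RPKM in Wapl clones, changes of 1.86 ± 0.23 and -0.78 ± 0.33 and a difference of 2.64 ± 0.40 (adjusted p = 0.0017). Tmem44 changed by 1.13 ± 0.17 and -0.63 ± 0.24, Rftn2, a raft protein gene, by 1.16 ± 0.14 and -0.48 ± 0.20, and Zswim7 by 1.26 ± 0.22 and -0.56 ± 0.32. Prcp, a lysosomal carboxypeptidase, rose from between 4.71 and 8.2 RPKM to between 16.6 and 29 RPKM in Smc3 cells and stood at 6.26 and 6.34 RPKM untreated and 4.04 and 6.42 RPKM treated in Wapl cells. Ctxn1 rose from between 18.6 and 30.5 RPKM to between 70.1 and 76.6 RPKM in Smc3 cells and was at 10.1 and 11.6 RPKM untreated and 10.2 and 9.79 RPKM treated in Wapl cells, lower from the start (-1.10 ± 0.20, adjusted p = 0.0105). Megf9 rose by 1.19 ± 0.15 and changed by 0.03 ± 0.21 in Wapl cells.

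Other genes of this sign fell in Wapl cells while the Smc3 change did not pass in the fit that left clones unpaired. The transcription factor gene Sox4 went from 54.5 and 88.6 to 18.9 and 33 RPKM in Wapl clones and from 57.9, 96, 54.4 and 82.4 to 96.7, 153, 96.1 and 128 RPKM in Smc3 clones 1 to 4 (-1.44 ± 0.35 against 0.71 ± 0.25, difference adjusted p = 0.0151). Its Wapl libraries did not overlap. All 4 Smc3 clones moved up and both Wapl clones down, which the rule that named the gene required. With the clone as a block, the adjusted p of the Sox4 difference was 0.000369 (limma). Marcksl1, an actin-binding protein gene, changed by -1.41 ± 0.20 in Wapl and 0.27 ± 0.14 in Smc3 cells. Tbc1d7, a subunit of the TSC complex, changed by -1.23 ± 0.23 and 0.47 ± 0.16, and the ephrin gene Efnb2 by -1.17 ± 0.16 and -0.18 ± 0.11. Hs1bp3 fell from 37.8 and 30.4 to 16 and 17.4 RPKM and Cdk5rap3 from 27.6 and 29.2 to 12.8 and 17.3 RPKM in Wapl clones, with Smc3 changes of 0.03 and 0.05. Mcts2 fell from 4.37 and 6.77 to 1.69 and 1.88 RPKM in Wapl clones; it is an imprinted copy of Mcts1 within an intron of H13, and reads of these genes could have been shared. The transcription factor gene Maf fell from 33.4 and 29.3 to 9.17 and 15.3 RPKM in Wapl clones, and its difference passed without the clone block (adjusted p = 0.0476) and not with it (0.0644, range 0.00975 to 0.397). Of the 16 genes named for a higher change in Smc3 cells, 9 kept the call of the difference in all 16 fits that left a library out.

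Pathway lists showed where the responses of named families stood. Over all 12604 genes tested, 9.37% rose and 5.6% fell in Smc3 cells, and 1.5% rose and 0.928% fell in Wapl cells. With the clone as a block the numbers over all genes were 3025 and 1591 in Smc3 and 960 and 879 in Wapl cells. Block counts of lists, here and below, are read against these larger numbers. Smc3 cells gave 4 clones and Wapl cells 2, so fewer Wapl calls do not show a smaller change. Wnt pathway modulators, receptors and feedback targets fell in Smc3 cells in 17 of 39 and rose in 5 (median change -0.48, against 0.07 over all genes tested). In Wapl cells 2 rose and none fell, with a median of 0.05 (6 rose and 4 fell with the clone as a block, and none rose after rescaling or without treated Wapl clone 1, untreated Wapl clone 1 or untreated Wapl clone 2). Wnt11, a ligand, was at 8.23, 13.2, 6.39 and 11.3 RPKM in untreated and 0.953, 1, 0.919 and 0.383 RPKM in treated Smc3 clones 1 to 4, and at 12.4 and 16 RPKM untreated and 9.97 and 10.4 RPKM treated in Wapl clones, a difference of -2.11 ± 0.34 (adjusted p = 0.0026). Ror2, the receptor for Wnt5a, fell from between 19.7 and 28.2 RPKM to between 5.42 and 9.09 RPKM in Smc3 cells and was at 17.3 and 19.2 RPKM untreated and 25.4 and 22.5 RPKM treated in Wapl cells, a difference of -1.83 ± 0.28 (adjusted p = 0.0017). Nkd1, a feedback inhibitor, changed by -2.14 and -0.58 (difference adjusted p = 0.00246). These are the 3 genes of the list whose difference passed. The largest falls in Smc3 cells, Sfrp2 (-4.87) and Lgr5 (-3.79), had Wapl changes of -0.77 and -0.50 and differences with adjusted p of 0.0704 and 0.0989. Fzd7, a receptor, rose in both, by 0.39 and 0.57.

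Axon guidance and neural signalling genes fell in 19 and rose in 6 of 66 in Smc3 cells, and fell in 3 and rose in 5 in Wapl cells (30 and 12 in Smc3 and 11 and 13 in Wapl cells with the clone as a block). Without each of the 4 Wapl libraries in turn, 1 fell and 1 to 2 rose in Wapl cells. Gfra2, Epha4 and Ntf3 were called alike in both. Ephb1, an ephrin receptor, rose by 1.02 in Wapl cells, from a group mean of 0.199 to 1.42 RPKM, and changed by -0.09 in Smc3 cells (difference adjusted p = 0.000443). Ret, the receptor tyrosine kinase for GDNF-family ligands, rose by 0.66 and changed by -0.16 (difference adjusted p = 0.0485). The largest falls in Smc3 cells outside the shared genes, Ngfr (-2.62), Robo2 (-2.29) and Ntrk2 (-1.94), had Wapl changes of -1.02, -0.94 and -0.91, none of which passed.

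Histone genes rose in 12 of 41 in Smc3 cells and in 5 in Wapl cells, none fell in either, and 4 were shared. Their median changes were 0.36 and 0.37, against 0.07 and -0.01 over all genes tested. Beside Hist1h4h, the shared members were Hist1h2bc (0.85 and 0.86), Hist1h2bj (0.87 and 1.54) and Hist1h1e (0.79 and 0.71). The Wapl count was 1 without treated or untreated Wapl clone 1, 3 without treated Wapl clone 2, 2 without untreated Wapl clone 2 and 12 with the clone as a block. Histone genes are near-identical to each other, so their reads could have been divided, and most of their mRNAs lack the poly(A) tail on which these libraries were selected.

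TGF-beta and BMP genes fell in 9 and rose in 2 of 35 in Smc3 cells, with none called in Wapl cells (limma, 6 at an unadjusted p under 0.05, and 20 and 6 in Smc3 and 4 and 3 in Wapl cells with the clone as a block). The median changes were -0.55 and -0.37. Nog, a BMP inhibitor, changed by -1.10 in Smc3 and -0.97 in Wapl cells, and no difference passed in the list. Extracellular matrix genes split in Smc3 cells into 13 higher and 17 lower of 77, and in Wapl cells into 2 higher and 1 lower (18 and 26 in Smc3 and 11 and 10 in Wapl cells with the clone as a block, and 0 and 0 without treated Wapl clone 1). Lamc1, a laminin chain, rose in both (0.52 and 0.79), and Col23a1, a transmembrane collagen, rose by 1.80 in Wapl cells with 0.01 in Smc3 cells (difference adjusted p = 0.0637).

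Imprinted genes fell in 8 and rose in 2 of 32 in Smc3 cells. H19 went from a group mean of 1157 to 49.4 RPKM and Igf2 from 531 to 113 RPKM there, changes of -5.84 and -2.83. In Wapl cells H19 went from 1557 to 291 RPKM and Igf2 from 744 to 326 RPKM, changes of -2.36 and -1.17 that did not pass (adjusted p = 0.354 and 0.596), and neither difference passed. The 2 imprinted genes that fell in Wapl cells were Mcts2 and Peg12 (-0.67, against -0.27 in Smc3 cells), while 6 fell and 4 rose there with the clone as a block (12 and 5 in Smc3 cells). Neither passed without treated Wapl clone 1 or untreated Wapl clone 2, and 1 of them passed without untreated Wapl clone 1.

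Genes of the integrated stress response fell in 7 and rose in 1 of 28 in Smc3 cells, and fell in 2 and rose in 1 in Wapl cells; both that fell in Wapl cells were the transporter chains Slc7a5 and Slc3a2. With the clone as a block 11 fell and 1 rose in Smc3 cells, and 7 fell and 3 rose in Wapl cells. Without treated Wapl clone 1 neither was called, and without untreated Wapl clone 1 or 2 only 1 was. Cholesterol synthesis genes rose in 6 of 22 in Smc3 cells and in none in Wapl cells (15 and 1 with the clone as a block, and 2 in Wapl cells at an unadjusted p under 0.05, limma), with medians of 0.71 and 0.20. The Smc3 count was 1 without treated Smc3 clone 4, untreated Smc3 clone 1 or untreated Smc3 clone 2, and 16 without untreated Smc3 clone 3. Adipocyte genes fell in 5 of 12 in Smc3 cells and, for Pparg alone, in Wapl cells (9 and 3 with the block); the Pparg call was lost in 9 of the 16 fits that left a library out. Cytoplasmic ribosomal protein genes fell in 8 of 78 in Smc3 cells and in none in Wapl cells, although their medians were -0.21 and -0.36, with the clone as a block 28 and 23 fell, and 17 had an unadjusted p under 0.05 in Wapl cells (limma). The Smc3 count was 3 to 5 without treated Smc3 clone 2, 3 or 4 or untreated Smc3 clone 1 or 4. Striated muscle genes rose in 5 of 13 in Smc3 cells and in none in Wapl cells (limma, 1 at an unadjusted p under 0.05). The differences of the myosin heavy chain genes Myh1 and Myh8 passed (1.01 against 0.16 and 0.76 against -0.12). No fit that left a library out kept both of these differences. After rescaling, 1 muscle gene had a difference that passed, and 5 still rose in Smc3 cells. With the clone as a block 6 muscle genes rose in Smc3 and 1 in Wapl cells.

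**Figure D3:**
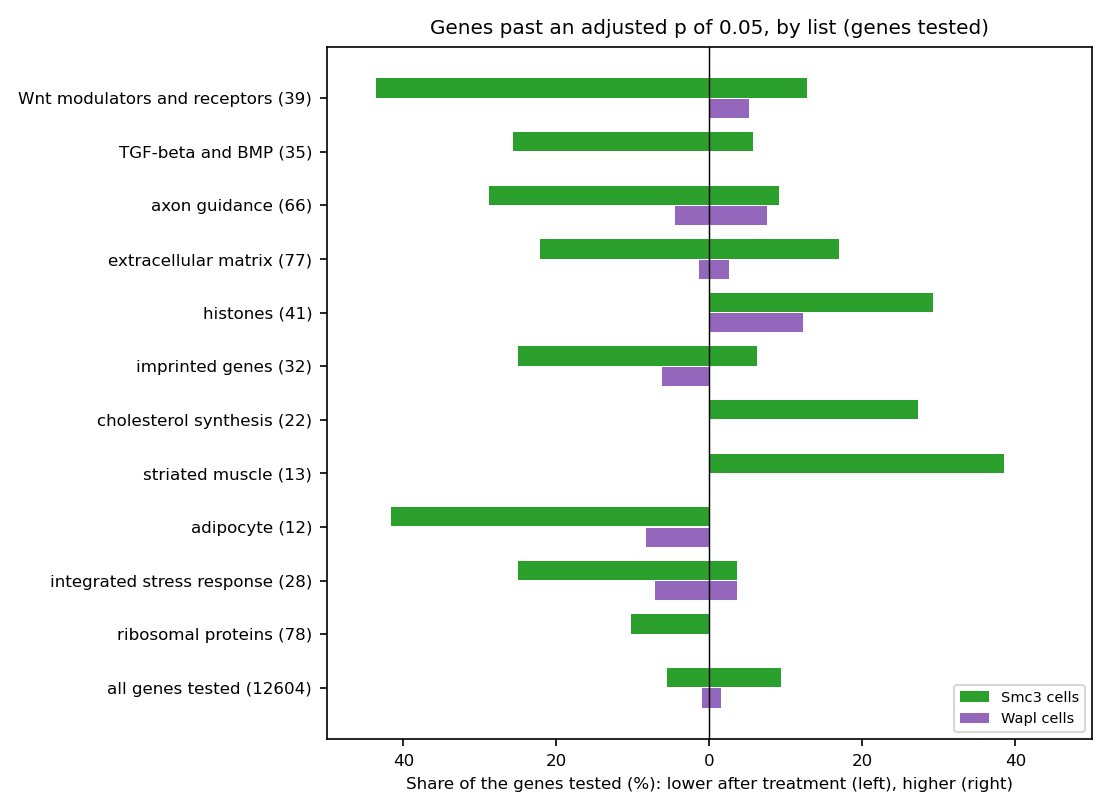
Bars give the share of each list's tested genes that passed an adjusted p of 0.05, lower after treatment to the left and higher to the right, in Smc3 cells (green) and Wapl cells (purple); list sizes are in brackets. The bars for all 12604 genes, 5.6% lower and 9.37% higher in Smc3 and 0.928% and 1.5% in Wapl cells, are the background.

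The correlations of clones within and between genotypes overlapped at their edges. Across the 12604 genes, the log2 changes of 2 Smc3 clones correlated at 0.56 to 0.82 (Pearson), those of the Wapl clones at 0.70, and those of a Smc3 with a Wapl clone at 0.32 to 0.59. The mean changes of the genotypes correlated at 0.52 (Spearman 0.45). The highest values between genotypes joined Wapl clone 1 with Smc3 clones 1 and 3, 0.59 and 0.53, against 0.32 and 0.35 with Smc3 clones 2 and 4. Wapl clone 2 correlated with the 4 Smc3 clones at 0.34 to 0.41. Cre-ER clones correlated with the others at -0.18 to 0.33 and with each other at -0.33. The points are genes of the same libraries, and the values are descriptions.

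**Figure D4:**
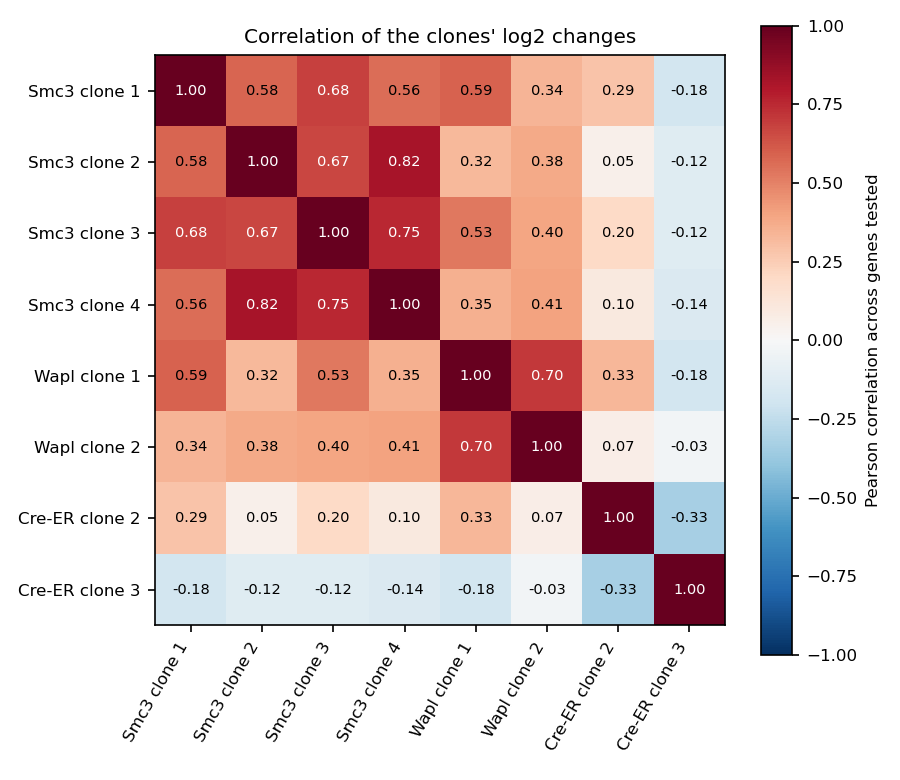
Each cell gives the Pearson correlation, across the genes tested, of the log2(RPKM + 1) changes of a pair of clones. Smc3 clones lie at 0.56 to 0.82 with each other and at 0.32 to 0.59 with Wapl clones.

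Markers of macrophages differed along the same clones. The summed level of the 20 markers tested went from 2193 to 275 RPKM in Smc3 clone 1, from 2189 to 437 in Smc3 clone 3 and from 5442 to 1116 in Wapl clone 1. It was far lower in Smc3 clones 2 and 4, at 66.1 and 131 RPKM untreated and 37.0 and 30.7 treated, and it changed less in Wapl clone 2, from 4290 to 3381 RPKM. The median changes of the markers were -2.52, -0.45, -2.12 and -0.89 in Smc3 clones 1 to 4 and -2.01 and -0.41 in Wapl clones 1 and 2. Cre-ER clones 2 and 3 had -1.66 and 0.62 with sums that went from 1333 to 367 and from 665 to 1127 RPKM. No marker passed the limma test in either genotype (1 in Smc3 and 0 in Wapl cells had an unadjusted p under 0.05, and 13 of 20 fell in Smc3 cells with the clone as a block), and none of the defining markers was at 0: Csf1r had group means of 24.1 and 6.37 RPKM in Smc3, 147 and 65.7 in Wapl and 24.5 and 19.2 in Cre-ER cells. The part of this signal in the correlations and in the shared genes was not tested. With the mean marker level as a covariate, an alternative chosen after seeing the data, the shared genes numbered 115 and the difference calls 209. Fibroblast markers were abundant throughout: Col1a1 had group means of 6126 and 3466 RPKM in Smc3 and 7013 and 5438 RPKM in Wapl cells, and 3 of 18 fell in Smc3 and 1 rose in Wapl cells (7 fell and 2 rose in Smc3, and 1 fell and 2 rose in Wapl cells with the block).

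**Figure D5:**
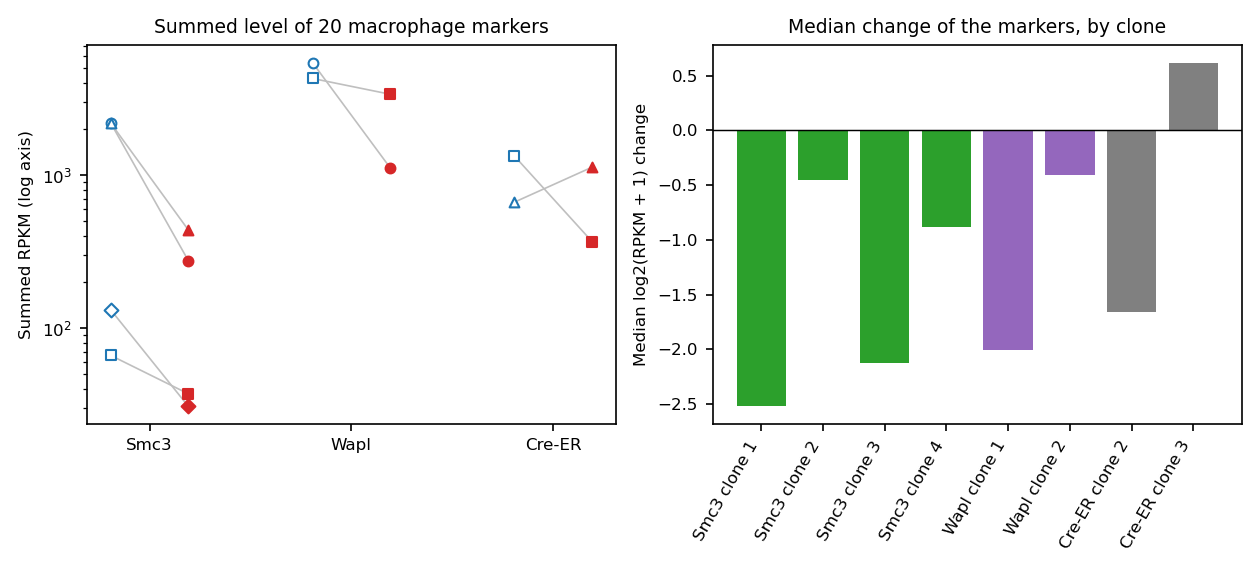
Left, the summed RPKM of 20 macrophage markers in each library on a log axis, with open blue untreated and filled red treated symbols and lines joining a clone (circle clone 1, square 2, triangle 3, diamond 4). Right, the median log2(RPKM + 1) change of the markers in each clone, from -2.52 in Smc3 clone 1 to 0.62 in Cre-ER clone 3.

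The drug control had no gene past the threshold in either direction (0.0% of those tested). There was 1 call in the fit over the 16 libraries alone and 1 with no filter on low values. Of the 12604 genes tested, 41 had an unadjusted p under 0.05 (limma). That is far fewer than the share of 0.05 that chance alone would give, so the test was too strict for this contrast. The absence of calls therefore does not show that the drug had no effect. The smallest p-values belonged to Hoxb13 (-0.62), Cenph (0.45), Rpl41 (-0.68), Hmx1 (0.96) and Mutyh (0.54), all at an adjusted p of 1.00, and none of these was called in Smc3 or Wapl cells. Rpl41 has many retrocopies, so its low RPKM is uncertain. Set against the drug change in the same model, the Smc3 change was higher for 59 genes (0.468%) and lower for 96 (0.762%), and the Wapl change higher for 14 (0.111%) and lower for 4 (0.0317%). These counts share the Cre-ER libraries and moved with them: each of the 4 Cre-ER libraries left out brought the first total to between 21 and 37 and the second to between 6 and 11. The first total was 79, 88 and 284 without treated Smc3 clones 4, 3 and 1. The second was 7 without treated Wapl clone 1, 10 without untreated Wapl clone 2 and 11 without untreated Smc3 clone 4. Centring the libraries by the median of their ratios split the first total into 36 higher and 104 lower.

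Untreated Wapl and Smc3 cells already differed, with 235 genes higher in Wapl cells (1.86%) and 99 lower (0.785%). Of the 148 genes whose change differed, 9 were among these. The count of starting differences was 10 without untreated Wapl clone 1, 9 without untreated Wapl clone 2, 77 and 71 without untreated Smc3 clones 2 and 4, 620 and 695 without untreated Smc3 clones 1 and 3, and 219 and 220 without untreated Cre-ER clones 2 and 3. With the macrophage covariate it was 35, of which 12 were higher and 23 lower in Wapl cells. With a pseudocount of 0.1 it was 172, split into 81 higher and 91 lower, and with a pseudocount of 5 there were 423 higher. Genotype and clone cannot be told apart in a comparison of starting levels.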

How the data were processed

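Poly(A)-selected RNA of 16 libraries from 3 genotypes was used. The deposited table holds RPKM per gene, reads scaled to transcript length and to the mapped reads of the library, as computed by the authors. The submitters' processing notes name Bowtie 0.12.5, TopHat 1.3.1 and 1.4.1, HTSeq, bedtools, MACS 1.4.2 and the mm9 build, with no role or order, and whether counting used strand is not given in the sources used here. Values of 18155 genes were whole multiples of 1 read within 0.02 reads, which gave the depth of each library. The 94 entries with a repeated symbol were kept apart.

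Here, genes with an RPKM of at least 1 in at least 2 of the 27 libraries (12604 of 23339) were fitted as log2(RPKM + 1) with limma 3.58.1 (trend and robust options, R 4.3.3) over all groups, with 15 residual degrees of freedom, no block, and Benjamini-Hochberg adjustment. Python 3.11.15 with pandas 2.3.3, numpy 2.4.6 and matplotlib 3.10.9 did the rest. The fit was run on simulated data in which all libraries varied independently, so that run does not cover the pairing of clones. The clone number in the labels pairs the libraries of a clone. The deviations of a pair correlated at 0.49, 0.70, 0.64 and 0.55 in Smc3 clones 1 to 4, 0.47 in Wapl and -0.20 in Cre-ER cells, and block values are given beside most counts they move.

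Genes were named by rule. It took the 12 largest common changes in each direction, and the 8 largest differences in each direction with opposite signs. It also took the 8 with other patterns and all genes called in both with opposite signs. The 5 highest and 5 lowest Wapl changes, the cohesin list and the 5 smallest p-values of the drug control completed it. Most had to reach a mean of 5 RPKM in a group. Exempt were the cohesin and drug genes and those called in both with opposite signs, of which 12 of 15 reached it. For common changes, differences with opposite signs and Wapl changes, each clone of the genotypes compared had to move with its group. Agreement of clones in these sets thus followed from the rule. How many of all genes had libraries that did not overlap was not counted. Gene models known only by a number, RIKEN entries, small RNAs and antisense RNAs entered the counts but are unnamed. Some genes that the rule or a list takes in are counted and not reported here. Members and lists were chosen with earlier results of these data known. Alternatives were other filters, pseudocounts, scalings, thresholds and limma options, the 16 libraries alone, subsets of Smc3 clones, each library left out, the clone block and, chosen after seeing the data, a macrophage covariate and a crossed pairing of the Cre-ER clones. Promoters came from RefSeq (GRCm38.p6), whose build differs from that of the table, and were matched by symbol.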

Additional observations from a re-analysis of the deposited data

Results flagged for a closer look

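Single libraries stood apart from the others of their group of 4 in 9 of 180 groups examined, where chance gives about 1 in 20. In treated Smc3 cells these were Smc1a in clone 3 (24.7 RPKM), Smc3 in clone 4 (13.2 RPKM), Cdca5 in clone 1 (1.26 RPKM), Cntnap3 in clone 1 (0.86 RPKM), Idh1 in clone 1 (67.3 RPKM), Wnt11 in clone 4 (0.383 RPKM) and Ccl11 in clone 1 (9.03 RPKM). In untreated Smc3 cells they were Grm4 in clone 1 (0 RPKM) and Rpl41 in clone 2 (0.437 RPKM).

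The difference between the Smc3 and the Wapl change passed the test (limma, Benjamini-Hochberg) for 46 named genes. It was positive, the Smc3 change being the higher, for Cmbl (2.64), Sox4 (2.15), Prcp (1.96), Zswim7 (1.81), Tmem44 (1.76), Idh1 (1.72), Tbc1d7 (1.70), Marcksl1 (1.68), Rftn2 (1.64), Ctxn1 (1.63), Dtd1 (1.60), Man2b2 (1.53), Mcts2 (1.5), Maf (1.41), Ppa2 (1.39), Stag1 (1.20), Megf9 (1.16), Lphn2 (1.13), Fam149b (1.07), Loh12cr1 (1.07), Rad51l3 (1.02), Hs1bp3 (1.01), Efnb2 (1.00), Cdk5rap3 (0.94), Ercc4 (0.91), Tradd (0.86) and Dcps (0.80). It was negative for Nxph4 (-4.40), Crabp1 (-4.08), Dner (-3.47), Cxcl5 (-3.13), Grm4 (-2.91), Ndnf (-2.70), Ache (-2.68), Lbp (-2.62), Ptx3 (-2.61), Wnt11 (-2.11), Kif26a (-2.06), Rasgrp2 (-2.05), Tmem132c (-2.04), Clu (-1.95), Ror2 (-1.83), Apba2 (-1.81), Reep6 (-1.68), Ak5 (-1.63) and Camk2n2 (-0.99).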

How the results depend on the processing

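Of 4159 values of 139 gene results under 30 alternatives, 3745 kept direction and side of the threshold, 404 lost the call, 4 gained it and 6 turned. Those that turned were small: the Smc3 transcript in Wapl cells with the macrophage covariate (-0.0066), and Wapal in Smc3 cells with Smc3 clones 2 and 3 only (0.020), with the macrophage covariate (0.011), and without treated Smc3 clone 4 (0.032), untreated Smc3 clone 1 (0.0066) or untreated Smc3 clone 3 (0.061), with a range of -0.070 to 0.061 over the libraries left out. With the clone as a block (the pairing of libraries), Smc3 calls numbered 4616, Wapl 1839, differences 1111, Smc3 against the drug 1343, Wapl against the drug 312, shared 919 and opposite 145. The block gives no comparison of untreated groups and left the drug count at 0. With the Cre-ER clones crossed, a pairing tried after seeing the data, these were 4569, 1825, 1054, 1335, 268, 925 and 135. At an adjusted p of 0.1 there were 526 Wapl, 224 difference, 283 Smc3 against drug, 32 Wapl against drug, 708 untreated, 238 shared and 33 opposite genes. Smc3 clones 2 to 4 alone gave 262 Smc3 against drug, 29 Wapl against drug and 625 untreated genes. Clones 2 and 3 gave 627 Smc3, 82 difference, 90 Smc3 against drug, 38 untreated and 6 opposite genes, and clones 3 and 4 gave 1105, 299 Smc3 against drug and 140 untreated. With no filter on low values, 1 drug, 101 Smc3 against drug and 49 Wapl against drug genes passed, and the fit over 16 libraries gave 1 drug gene. A filter at an RPKM of 5 gave 5 Wapl against drug and 191 untreated genes. A pseudocount of 0.1 gave 5 and 172, and a pseudocount of 5 gave 36 and 523. The macrophage covariate gave 35 untreated genes. The cause of these moves was not tested. Leaving out 1 library in turn gave 1280 to 2063 Smc3, 28 to 359 Wapl, 0 to 2 drug, 52 to 215 difference, 21 to 284 Smc3 against drug, 6 to 25 Wapl against drug, 9 to 695 untreated, 5 to 168 shared and 2 to 16 opposite genes. At the lowest depth, 8467390 reads, genes near an RPKM of 1 rest on 23.9 reads for a gene of median length.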

Other observations

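Other lists are read against the share of all genes tested. It was 9.37% higher and 5.6% lower in Smc3 and 1.5% higher and 0.928% lower in Wapl cells. Counts with the block are read against 3025 higher and 1591 lower of 12604 genes in Smc3 and 960 and 879 in Wapl cells. Among Hox genes 4 of 37 rose and 1 fell in Smc3 cells, and Hoxc6, a factor of thoracic patterning, rose in both (0.62 and 1.00). The Wapl call of Hoxc6 was lost without treated Wapl clone 1, untreated Wapl clone 1 or untreated Wapl clone 2. With the clone as a block 9 Hox genes rose and 1 fell in Smc3 cells, and 10 rose and 2 fell in Wapl cells. Among respiratory chain genes 4 of 78 rose and 1 fell in Smc3 cells (33 and 1 with the block, and 2 and 1 without treated Smc3 clone 4 or untreated Smc3 clone 2), Cox6b2, a subunit of cytochrome c oxidase, rose in both (0.85 and 1.46), and Uqcrfs1, the Rieske protein of complex III, had a difference that passed (0.28 against -0.55, adjusted p = 0.0264). The call of that difference was lost without each of the 4 Wapl libraries, treated Smc3 clone 3 or 4 or untreated Smc3 clone 4, and the Wapl call of Cox6b2 without treated Wapl clone 1. Of p53 targets 3 of 24 rose in Smc3 cells and Cdkn1a, which encodes the cell cycle inhibitor p21, rose in Wapl cells (0.76). With the block 13 rose and 3 fell in Smc3 and 2 rose and 1 fell in Wapl cells, 1 rose in Smc3 cells after rescaling, and the Smc3 count was 1 without treated Smc3 clone 3 or untreated Smc3 clone 1 or 2 and 6 without untreated Smc3 clone 3. The Wapl call of Cdkn1a was lost without treated Wapl clone 1, untreated Wapl clone 1 or untreated Wapl clone 2. Of proliferation genes 4 of 32 fell and 1 rose in Smc3 cells, and the replication licensing gene Cdt1 fell in both (-0.90 and -1.32). With the block 9 fell and 3 rose in Smc3 and 9 fell and 1 rose in Wapl cells. Over the fits that left out 1 library, the proliferation genes that fell ranged from 2 (without treated Smc3 clone 3 or 4 or untreated Smc3 clone 2) to 8 (without treated Smc3 clone 1) in Smc3 cells and from 0 (without treated or untreated Wapl clone 1 or untreated Wapl clone 2) to 6 (without treated Smc3 clone 1) in Wapl cells. The only epithelial marker called was Cdh1, or E-cadherin, which rose by 0.72 in Wapl cells and changed by -0.23 in Smc3 cells (difference adjusted p = 0.0313), and neither call held without treated Wapl clone 1, untreated Wapl clone 1 or untreated Wapl clone 2.

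Chemokine genes fell in 4 of 30 in Smc3 cells and 1, Ccl11, rose in Wapl cells, a call lost without treated Wapl clone 1, untreated Wapl clone 1 or untreated Wapl clone 2 (with the block 10 fell and 1 rose in Smc3, and 1 fell and 3 rose in Wapl cells). Immediate early genes had 1 of 27 called in Smc3 cells and none in Wapl cells (limma, 2 at an unadjusted p under 0.05), with medians of -0.54 and -0.0027, and with the clone as a block 20 fell in Smc3 and 2 in Wapl cells. Interferon response genes had 1 higher and 1 lower of 39 in Smc3 cells, and clustered protocadherins 2 and 2 of 33, with none of either list called in Wapl cells (limma, 1 and 5 at an unadjusted p under 0.05). With the block 4 interferon genes rose and 2 fell in Smc3 cells and 1 rose in Wapl cells, and 5 protocadherins rose and 8 fell in Smc3 cells and 1 fell in Wapl cells. Without treated Smc3 clone 1, 8 protocadherins fell in Smc3 cells. Endothelial markers fell in 2 of 7 and neural and glial markers in 3 of 11 in Smc3 cells, where 1 of the latter rose (4 and 4 fell and 1 of each rose with the block). Smooth muscle and myofibroblast markers rose in 2 of 10 in Smc3 cells, and no chondrocyte or osteoblast marker of 6 was called (limma, 1 in Smc3 and 0 in Wapl cells at an unadjusted p under 0.05).

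Among genes whose difference passed, some with the same sign followed each other in the GRCm38.p6 order of the genes tested. These were Myh1 and Myh8 on chromosome 11, Aldh7a1 and Phax on chromosome 18, and Rasgrp2 and Nrxn2 on chromosome 19. Genes that were not tested may lie between them, and the number of such pairs expected by chance was not counted. At most 1 of the Myh1 and Myh8 differences passed in each fit that left a library out.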
